A study of Mus musculus with 16 samples.

Results

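The mRNA of 35 complement and coagulation genes was measured in mouse liver, 16 of them encoding proteins of the complement system and 19 proteins of the clotting, anticoagulant, contact and fibrinolytic systems. The genes were chosen by name as liver-made members of these cascades, and all 35 were found among the 24082 Ensembl gene IDs of the table, each used once. The mice were age- and weight-matched female C57Bl6/J animals, with 4 in each of 4 groups and 1 library per mouse. They received a liquid Pair diet, in which maltose dextrin replaced ethanol calorie for calorie, or a Chronic Ethanol Diet, and with either diet Vehicle or iodomethylcholine (IMC), a small molecule that blocks the gut microbial enzyme that releases trimethylamine from choline. The groups are called Pair vehicle, Pair IMC, EtOH vehicle and EtOH IMC. Ethanol-fed mice ate freely whereas pair-fed mice received a matched amount. The study describes lower food intake and body weight in the mice that received both IMC and ethanol. Its figure legend also marks a body weight difference between pair-fed mice with and without IMC. In EtOH IMC effects of intake and body weight cannot be told apart from those of the treatments. In Pair IMC the same holds for body weight.

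Complement and coagulation are cascades of plasma proteins, most of them made by hepatocytes and secreted as inactive precursors. Complement is started by antibody complexes (classical pathway), by lectins that bind sugars on microbes (lectin pathway) or spontaneously on surfaces (alternative pathway), and all routes meet at C3 before the terminal components form a pore. Coagulation runs from factor XII and factor XI (contact route) or factor VII (tissue factor route) through factor X to thrombin, which turns fibrinogen into fibrin. Protein C, protein S and several serpins restrain it and plasmin dissolves the clot, and since the liver makes these factors, clotting times are used as a measure of its synthetic function.

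The values are normalized counts, that is reads on a gene divided by a size factor of the library, rescaled here so that all 16 libraries are comparable. Reads on genes ranged from 9632659 to 12601199 per library, and the 35 genes took 4.14% to 5.96% of them. All 35 had a value of at least 10 in each of the 16 libraries and all entered the test. Differences are log2 fold changes with their standard error (SE), and adjusted p-values are from limma with Benjamini-Hochberg adjustment over all 12522 genes tested, two-sided, with a threshold of 0.05. These p-values measure the spread between the sequenced mice. Pair IMC and EtOH vehicle hold library numbers 1 to 8, and Pair vehicle and EtOH IMC hold 9 to 16. The IMC effect averaged over both diets and the ethanol effect averaged over both treatments are balanced over these ranges. The other comparisons are not. Ethanol-fed libraries hold the odd numbers and pair-fed libraries the even ones. In every ethanol comparison diet therefore cannot be told apart from odd or even number. The labels do not say that the numbers were handled separately.

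Hepatocyte markers were abundant in every library, with albumin (Alb) at 6.74% of reads or more, whereas the neutrophil marker Ly6g was at 0 in 15 of the 16 libraries and the platelet marker Pf4 was between 1.06 and 10.95. Library 12 of Pair vehicle stood apart in inflammation-responsive genes. Its count of serum amyloid A1 (Saa1) was 6851, against 242 to 594 in the other 3 libraries of its group. The sum of 24 acute phase genes outside the 35 was 260497 in it and 134957 to 208955 in the other 15. Calls of members that were gained or lost on leaving out library 12 are given beside the result.

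Levels between genes were compared per kb of exon, since a longer transcript gives more reads. The length covers all annotated exons of a gene, 9833 bases for Masp1, and can exceed that of the transcripts made in liver. Levels per kb of such genes may then be too low. C3, the protein on which all complement pathways converge, was highest, at a mean of 22148 normalized counts per kb over the 16 libraries. The 3 fibrinogen chains came next, with 21015 per kb for Fgg, 17898 for Fga and 14668 for Fgb, and plasminogen (Plg), the precursor of plasmin, followed at 8085. At the other end were C6, a component of the terminal pore, at 46.5 per kb, protein S (Pros1) at 157, the lectin pathway protease Masp1 at 218 and factor XI (F11) at 271. The members were less variable between mice of a group than most genes. Their median within-group SD was 0.15 on the log2 scale, against 0.20 over all genes tested, and 11 of the 35 lay above that median. The genes tested include some that reach 10 in only 4 libraries, whereas every member did so in all 16. The comparison is therefore not matched for level. C8a (0.53), C6 (0.47), C8b (0.40) and F11 (0.40) varied most, while factor XII (F12) and factor IX (F9) varied least, at 0.09 each. EtOH IMC had the lowest group mean for 21 of the 35 members, and Pair vehicle had the highest for 13. The same counts over all genes are not given here, so these do not set the members apart. Rankings across diets also depend on the rescaling.

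**Figure D1:**
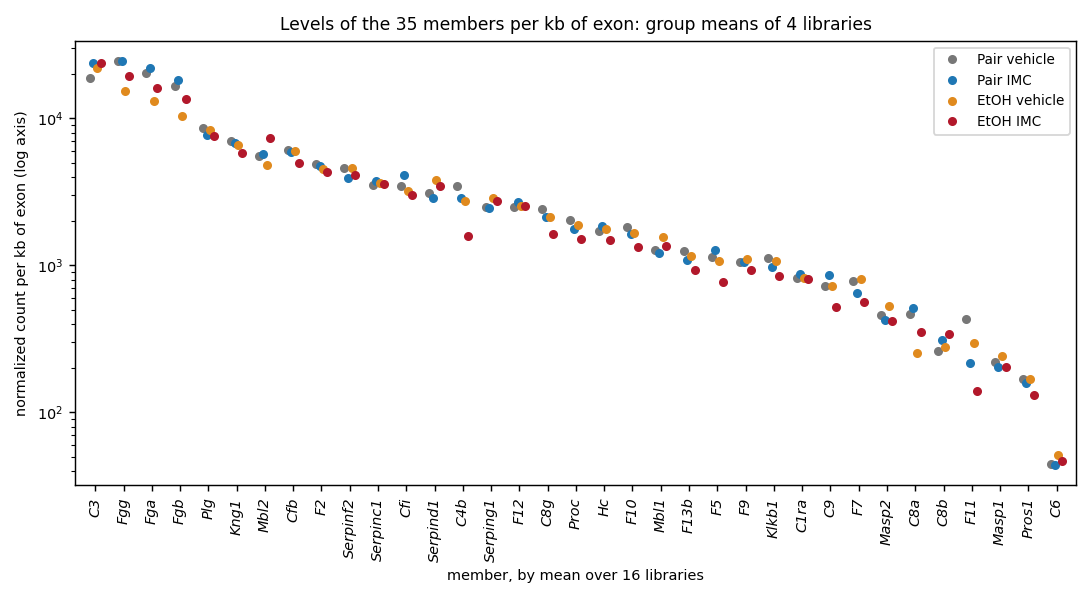
Group mean of 4 libraries for each of the 35 members, in normalized counts per kb of exon on a log axis, ordered by the mean over 16 libraries and coloured by group. C3 and the fibrinogen chains lead at 14668 to 22148 per kb and C6 is lowest at 46.5, so the range of levels is far wider than the distance between groups for any member.

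Several members are neighbours in the genome. On chromosome 8 (GRCm38), F11 (45241174 to 45262031) ends 4657 bases before the plasma prekallikrein gene Klkb1 (45266689 to 45294859), and F7 (13026034 to 13035809) lies 1498 bases from F10 (13037308 to 13056676). Fgg, Fga and Fgb lie in a row on chromosome 3 between 83007724 and 83049863, and C8b and C8a are 11130 bases apart on chromosome 4. C4b (chromosome 17, 34728380 to 34743882) has a near-identical copy in the mouse genome, C4a, whose values are not given here. Reads may have been divided between the copies, and the C4b values are uncertain to that extent.

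The promoters of the 5 members with the largest differences for which a sequence was at hand are shown, because the results below turn on these genes. Each runs 5′ to 3′ on the gene's strand from 250 bases before to 50 bases after the start of the RefSeq gene in GRCm38.p6. Capitals mark matches to motifs of factors that act on liver genes.
F11 (chr8:45261982-45262281, minus strand): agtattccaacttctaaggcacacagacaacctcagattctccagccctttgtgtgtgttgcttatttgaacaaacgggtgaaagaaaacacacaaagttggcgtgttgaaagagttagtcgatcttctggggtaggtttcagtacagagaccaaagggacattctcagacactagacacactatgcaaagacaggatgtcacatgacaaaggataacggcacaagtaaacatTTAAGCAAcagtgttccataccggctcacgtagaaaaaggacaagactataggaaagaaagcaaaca
C9 (chr15:6445096-6445395, plus strand): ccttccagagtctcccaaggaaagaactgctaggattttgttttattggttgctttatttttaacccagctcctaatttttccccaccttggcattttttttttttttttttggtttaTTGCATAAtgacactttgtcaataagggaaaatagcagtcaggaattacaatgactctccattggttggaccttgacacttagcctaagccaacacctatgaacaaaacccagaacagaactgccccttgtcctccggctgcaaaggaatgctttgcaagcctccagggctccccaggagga
F5 (chr1:164151585-164151884, plus strand): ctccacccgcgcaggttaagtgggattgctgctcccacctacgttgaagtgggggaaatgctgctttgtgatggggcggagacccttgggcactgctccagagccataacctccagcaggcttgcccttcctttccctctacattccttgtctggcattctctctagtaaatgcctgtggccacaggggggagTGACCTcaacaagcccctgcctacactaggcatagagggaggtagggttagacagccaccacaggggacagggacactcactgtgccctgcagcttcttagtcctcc
Fgb (chr3:83049814-83050113, minus strand): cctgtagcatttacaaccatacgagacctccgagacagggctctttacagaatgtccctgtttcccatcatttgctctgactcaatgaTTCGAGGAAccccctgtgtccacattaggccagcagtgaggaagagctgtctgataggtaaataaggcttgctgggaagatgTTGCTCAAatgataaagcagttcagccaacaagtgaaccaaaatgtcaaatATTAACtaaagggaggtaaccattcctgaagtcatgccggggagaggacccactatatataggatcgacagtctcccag
Mbl2 (chr19:30232678-30232977, plus strand): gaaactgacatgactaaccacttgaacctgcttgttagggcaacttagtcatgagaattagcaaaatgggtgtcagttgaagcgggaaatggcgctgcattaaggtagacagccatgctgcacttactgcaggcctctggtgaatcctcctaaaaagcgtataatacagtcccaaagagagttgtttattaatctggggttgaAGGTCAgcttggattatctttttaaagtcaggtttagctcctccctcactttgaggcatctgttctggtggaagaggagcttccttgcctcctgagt

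The motifs were searched on both strands in the 32851 mouse promoters of this length, which include 27 of the 35 members. A member counted when any of its promoters matched, whereas the share of all promoters counts each promoter singly. The shares are therefore not in the same unit. The HNF1 motif GTTAAT was present in 8 of the 27 members (29.6%) and in 7.10% of all promoters. The C/EBP motif TTGCNNAA was present in 9 members (33.3%) and in 10.8% of all promoters, and the STAT3 motif TTCNNNGAA in 7 members (25.9%) and in 8.30%. The nuclear receptor motif AGGTCA was present in 12 members (44.4%) and 16.3% of all promoters. The HNF4 motif CAAAGTCCA matched 0 of the 27 members and 0.475% of all promoters. Of the 5 promoters shown, F11 and C9 hold a C/EBP match beginning 17 and 132 bases before the start, F5 and Mbl2 hold AGGTCA matches 57 and 47 bases before it, and Fgb holds an HNF1, a C/EBP and a STAT3 match 29, 80 and 162 bases before it. A match describes letters in the window and was not compared with the differences between groups.

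IMC was compared with vehicle in each diet to ask how inhibition of the microbial enzyme bears on liver transcripts. In pair-fed mice 1 of the 35 members passed the test, F11, which was lower with IMC, while 9.49% of all genes tested passed. In ethanol-fed mice 13 members passed, 12 lower and 1 higher with IMC, where 21.5% of all genes passed in either direction and 11.1% were lower. The median log2 fold change of the members was -0.02 in pair-fed and -0.18 in ethanol-fed mice, beside medians of 0.00 over all genes in both diets. Of the 12 that fell, 9 belong to coagulation, 5 of them being vitamin K-dependent, and 3 to complement. Averaged over both diets, 11 members passed, 1 higher and 10 lower, beside 28.2% of all genes in either direction, and 1759 of the 12522 genes tested were lower, and the median of the members was -0.12. The counts in ethanol-fed mice fell to 7 without library 7 and to 8 without library 3 or library 9.

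**Figure D2:**
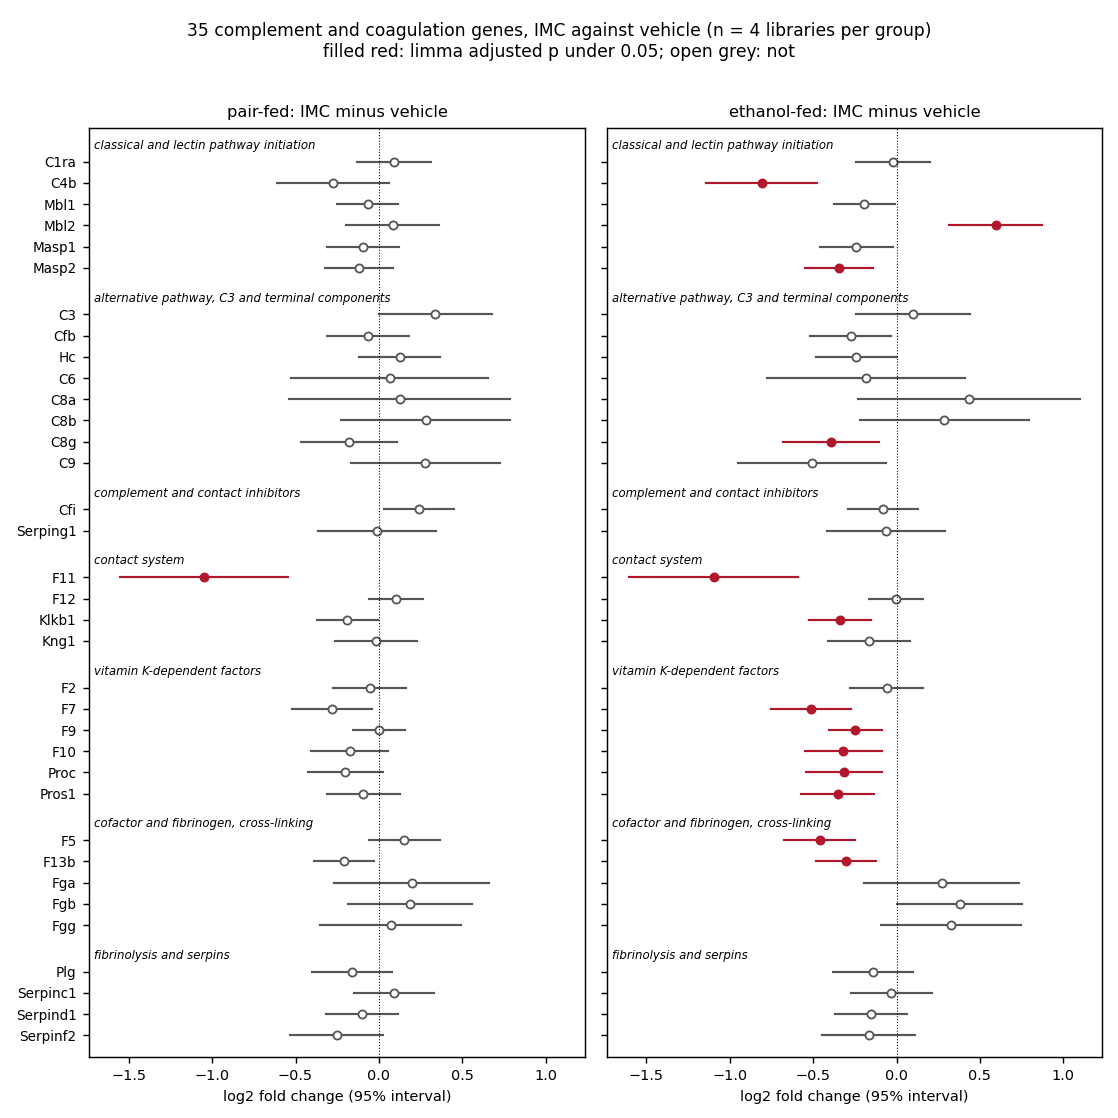
Log2 fold change of IMC against vehicle for the 35 members, grouped by role, in pair-fed mice (left) and ethanol-fed mice (right), with 95% intervals from limma. Filled red points passed at an adjusted p-value under 0.05. F11 stands near -1 in both panels, while 5 of the 6 vitamin K-dependent factors, F5 and C4b passed below 0 and Mbl2 above 0 in ethanol-fed mice.

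Among the genes that start the classical and lectin pathways, complement C4b and the mannose-binding lectin gene Mbl2 moved in opposite directions with IMC in ethanol-fed mice. C4b, cleaved by both pathways on the way to C3, was 15677, 17462, 14094 and 15723 in EtOH vehicle and 9639.5, 9077, 8739 and 8427 in EtOH IMC. The 4 libraries of EtOH IMC were the lowest of all 16, and the log2 fold change was -0.81 (SE 0.16, adjusted p = 0.00198). In pair-fed mice C4b was 16588, 27071, 17630.3 and 17644 with vehicle and 18651, 12206, 14448 and 19840.2 with IMC, groups that overlapped (log2 fold change -0.27, adjusted p = 0.296, and -0.11, adjusted p = 0.678, without library 12). Averaged over diets its log2 fold change was -0.54 (adjusted p = 0.00186), and -0.46 (adjusted p = 0.00225) without library 12.

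Mbl2, a lectin that binds microbial sugars, was 5703, 5603, 4419 and 5336 in EtOH vehicle and 6879.8, 7099, 8611 and 9304 in EtOH IMC. All libraries of EtOH IMC lay above those of EtOH vehicle, a log2 fold change of 0.59 (SE 0.13, adjusted p = 0.00443), and averaged over diets it was 0.34 (adjusted p = 0.0121). Its relative Mbl1 came to -0.19 (adjusted p = 0.121) in the same comparison. Masp2, the protease that the lectins activate, fell by 0.34 on the log2 scale (adjusted p = 0.0185), from 1757 ± 111 to 1384 ± 89.5 (SD, n = 4), without overlap. Its adjusted p-value was 0.057 without library 7 and 0.0523 without library 9. Averaged over diets Masp2 fell by 0.23 (adjusted p = 0.0176). Masp1 (log2 fold change -0.24, adjusted p = 0.105) and the classical pathway protease C1ra (-0.02, 95% interval -0.24 to 0.20) did not pass in ethanol-fed mice. Masp1 passed there without library 16 (adjusted p = 0.0322).

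In the alternative and terminal part of complement, 1 of 8 genes passed with IMC in ethanol-fed mice. C8g, a chain of the terminal complex, was 3117, 3507, 2524 and 3524 in EtOH vehicle and 1917, 2527, 2119 and 3172 in EtOH IMC. The groups overlapped, and the log2 fold change of -0.39 (adjusted p = 0.0468) lay close to the threshold. The call was lost when any of libraries 1, 2, 3, 4, 6, 7, 9, 11, 12, 13, 14 or 16 was left out, with the highest adjusted p-value, 0.143, without library 9. Averaged over diets C8g fell by 0.29 on the log2 scale (adjusted p = 0.0336), a call lost without libraries 1, 2, 3, 4, 6, 7, 9, 13, 14 or 16, with values up to 0.0711.

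C9, the pore-forming component, was 1700.1, 2062, 1721 and 1947 in EtOH vehicle and 1447, 947, 1315 and 1601 in EtOH IMC, groups that did not overlap although the test was not passed (log2 fold change -0.51, adjusted p = 0.0969). It was 0.0399 without library 12. Cfb did not pass with all libraries but did without library 15 (log2 fold change -0.37, adjusted p = 0.0348). C3 had a log2 fold change of 0.34 (95% interval -0.00 to 0.68) in pair-fed and 0.10 (-0.24 to 0.44) in ethanol-fed mice. The wide intervals of C6, C8a and C8b, for example -0.23 to 1.10 for C8a in ethanol-fed mice, leave differences of these sizes undetectable. Neither inhibitor, Cfi, which degrades C3b and C4b, nor Serping1, which blocks the starting proteases and the contact system, passed with IMC in either diet.

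F11 had the largest IMC difference of the 35 genes in both diets. The gene encodes factor XI, a contact-route protease that activates factor IX. It was 941, 786, 807 and 1322 in Pair vehicle and 740.3, 276, 366 and 572 in Pair IMC, without overlap. With ethanol it was 618, 602, 666 and 769 in EtOH vehicle and 272, 420.0, 268 and 296 in EtOH IMC, again without overlap. The log2 fold changes were -1.05 (SE 0.24, adjusted p = 0.0125) in pair-fed and -1.10 (SE 0.24, adjusted p = 0.00404) in ethanol-fed mice, or -51.7% and -53.2% as percent changes. They differed by -0.05 between diets (95% interval -0.76 to 0.67). The call in pair-fed mice held in every fit with 1 library left out and was lost when only the pair-fed libraries entered the fit (adjusted p = 0.0507). Averaged over diets F11 fell by 1.07 on the log2 scale (SE 0.17, adjusted p = 0.00022).

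Klkb1, the neighbour of F11 and the gene of plasma prekallikrein, which is activated by factor XII, moved less. It was 5866, 5615, 5131 and 5778 in EtOH vehicle and 3818, 4456, 4606 and 4886 in EtOH IMC, a fall of 0.34 on the log2 scale (SE 0.09, adjusted p = 0.0116) without overlap. In pair-fed mice the log2 fold change was -0.19 (adjusted p = 0.186), and averaged over diets it was -0.26 (adjusted p = 0.00453). After quantile normalization the fall in ethanol-fed mice was 0.20 (adjusted p = 0.0634), which did not pass. F12, which begins the contact route, had log2 fold changes of 0.10 (95% interval -0.06 to 0.27) and -0.00 (-0.17 to 0.16) in the 2 diets. Kininogen (Kng1), the carrier of prekallikrein and factor XI, had -0.02 (-0.26 to 0.23) and -0.16 (-0.41 to 0.08).

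**Figure D3:**
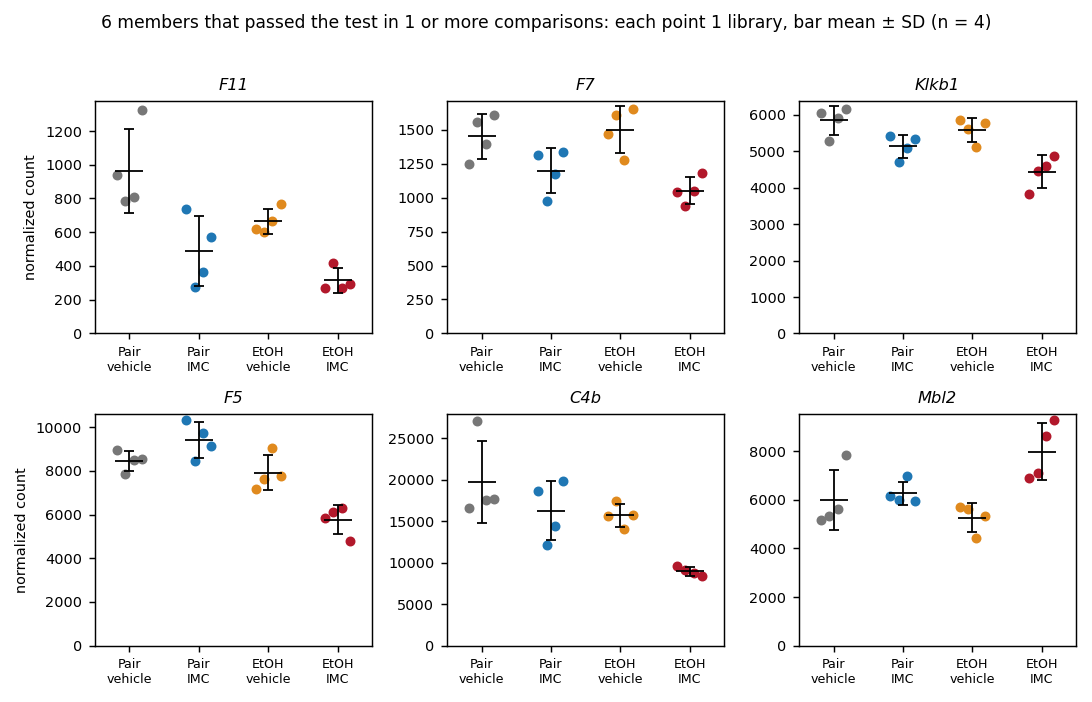
Normalized count of F11, F7, Klkb1, F5, C4b and Mbl2 in each library (points), with the mean and SD of each group of 4 as bars. The EtOH IMC libraries lie below the EtOH vehicle libraries for F11, F7, Klkb1, F5 and C4b and above them for Mbl2, and for F11 the Pair IMC libraries (276 to 740.3) also lie below Pair vehicle (786 to 1322).

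Of the 6 vitamin K-dependent genes, whose proteins need gamma-carboxylation to bind membranes, 5 passed below 0 with IMC in ethanol-fed mice. Over all genes 11.1% did. In pair-fed mice 0 passed with limma, edgeR or DESeq2, and 1 had an unadjusted p under 0.05. The median log2 fold changes were -0.14 in pair-fed mice, where F9 was at -0.00, and -0.32 in ethanol-fed mice. Factor VII (F7), which begins clotting with tissue factor, was 1468, 1609, 1274 and 1654 in EtOH vehicle and 1040.5, 939, 1048 and 1179 in EtOH IMC. The groups did not overlap, and F7 fell by 0.51 on the log2 scale (SE 0.11, adjusted p = 0.00454), with -0.28 (adjusted p = 0.132) in pair-fed mice and -0.40 (adjusted p = 0.00163) averaged over diets. It passed in every fit with 1 library left out in the ethanol-fed and the averaged comparison.

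The other vitamin K-dependent genes moved by smaller amounts and were closer to the threshold. Protein S (Pros1), a cofactor of protein C, was 683, 673, 696 and 699 in EtOH vehicle and 505, 551, 579.6 and 519 in EtOH IMC, a fall of 0.35 on the log2 scale (adjusted p = 0.0227) without overlap. F9, which activates factor X together with factor VIII, fell by 0.25 (adjusted p = 0.0261), from 3004 ± 240 to 2527 ± 126 (SD, n = 4), also without overlap. For Pros1 the call was lost without library 7 (adjusted p = 0.053), 9 (0.0552) or 15 (0.0512), and for F9 without library 3 (0.0885), 7 (0.0713), 13 (0.0524) or 15 (0.0674). Factor X (F10) and protein C (Proc) fell by 0.32 (adjusted p = 0.0472) and 0.31 (adjusted p = 0.0438), with overlapping groups. After quantile normalization F9, F10 and Proc did not pass (adjusted p = 0.094, 0.181 and 0.154).

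The F10 call was lost without any of libraries 1, 2, 3, 6, 7, 9, 11, 12, 13 or 14 and the Proc call without any of 1, 3, 6, 7, 9, 11, 13 or 14, in both cases with the highest value without library 9 (0.133 and 0.129). Averaged over diets Proc fell by 0.26 (adjusted p = 0.0167) and kept its call in every fit with 1 library left out. F10 fell by 0.25 (adjusted p = 0.0245), lost without library 4 (0.0571), 6 (0.0521), 9 (0.0503) or 13 (0.0515). Pros1 fell by 0.22 (adjusted p = 0.0302), lost without library 4 (0.0674), 7 (0.0519), 9 (0.0546) or 12 (0.0579). Prothrombin (F2), the most abundant of the 6, had log2 fold changes of -0.06 (95% interval -0.27 to 0.16) and -0.06 (-0.28 to 0.16).

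Factor V (F5), the cofactor that speeds thrombin formation, had its highest group mean in Pair IMC and its lowest in EtOH IMC, as did C1ra, C9, Hc and Cfi. It was 8961, 7871, 8489 and 8523 in Pair vehicle and 10340.1, 8435, 9720.4 and 9132 in Pair IMC. With ethanol it was 7177, 7633, 9040.2 and 7774 in EtOH vehicle and 5856, 6109, 6280.2 and 4794 in EtOH IMC. The 4 libraries of EtOH IMC were the lowest of all 16, and F5 fell with IMC in ethanol-fed mice by 0.46 on the log2 scale (SE 0.10, adjusted p = 0.00419), while in pair-fed mice its log2 fold change was 0.15 (adjusted p = 0.379). After quantile normalization the fall in ethanol-fed mice was 0.27 (adjusted p = 0.082), which did not pass.

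F5 was the only member for which the difference of the IMC effect between diets passed the test, where 1.11% of all genes did. The difference was -0.61 (SE 0.14, 95% interval -0.91 to -0.31, adjusted p = 0.0482). The call was lost without any of libraries 1, 2, 3, 5, 6, 7, 8, 9, 12, 13, 14, 15 or 16, with the highest adjusted p-value, 0.0964, without library 5 or 6. It was 0.054 with edgeR and 0.0022 with DESeq2 on whole reads. This difference coincides with that between library numbers 1 to 8 and 9 to 16, and the 2 cannot be told apart. The other 34 members did not pass, including C4b (-0.53, adjusted p = 0.266) and Mbl2 (0.51, adjusted p = 0.194), so a call in ethanol-fed mice alone does not show for them that the diets differed.

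F13b, the carrier subunit of the enzyme that cross-links fibrin, fell with IMC in ethanol-fed mice from 2923 ± 178 to 2363 ± 98.0 (SD, n = 4), by 0.31 on the log2 scale (adjusted p = 0.0175) and without overlap. The adjusted p-value was 0.0527 without library 3. In pair-fed mice it was -0.21 (adjusted p = 0.128, and 0.0295 without library 8), and averaged over diets -0.26 (adjusted p = 0.00421).

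The fibrinogen chains, substrates of thrombin, had log2 fold changes above 0 with IMC in both diets, between 0.07 and 0.38, and did not pass. In ethanol-fed mice Fgb was 43149, 40351, 35419 and 38833 with vehicle and 48003, 54977, 45972 and 56475 with IMC, without overlap (log2 fold change 0.38, 95% interval 0.01 to 0.75, adjusted p = 0.138, and 0.0466 without library 12). Averaged over diets, and with library 12 left out, all 3 chains passed above 0. The log2 fold change was then 0.39 for Fgb (adjusted p = 0.00728), 0.37 for Fga (0.0212) and 0.32 for Fgg (0.0257), against 0.28 (0.101), 0.23 (0.277) and 0.20 (0.313) with all libraries.

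Plasminogen and the serpins that restrain the proteases did not pass with IMC when all libraries were used. The log2 fold change averaged over diets was -0.15 (95% interval -0.32 to 0.02) for Plg, 0.03 (-0.14 to 0.20) for antithrombin (Serpinc1) and -0.13 (-0.28 to 0.03) for heparin cofactor II (Serpind1). For Serpinf2, the inhibitor of plasmin, it was -0.21 (adjusted p = 0.104), and -0.26 (adjusted p = 0.0471) without library 8.

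Ethanol was compared with pair feeding, first without and then with IMC. Without IMC 2 members passed, Fgb lower and Mbl1 higher, beside 11.9% of all genes. Under IMC 5 passed, all lower (C4b, F5, C9, Cfi and C8g), beside 16.5% of all genes in either direction and 8.61% lower. Averaged over treatments 12 passed, 10 lower and 2 higher, beside 26.1% of all genes in either direction and 13.2% lower, with 1622 of the 12522 genes higher. The members' medians were -0.04, -0.21 and -0.13. As deposited, values of the median gene lay 0.19 (log2) higher in ethanol-fed libraries. Without the rescaling the members' medians were 0.15, -0.02 and 0.06, so smaller ethanol differences depend on it. The ethanol comparison under IMC shares the EtOH IMC libraries with the IMC comparison in ethanol-fed mice, and that without IMC shares the EtOH vehicle libraries.

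**Figure D4:**
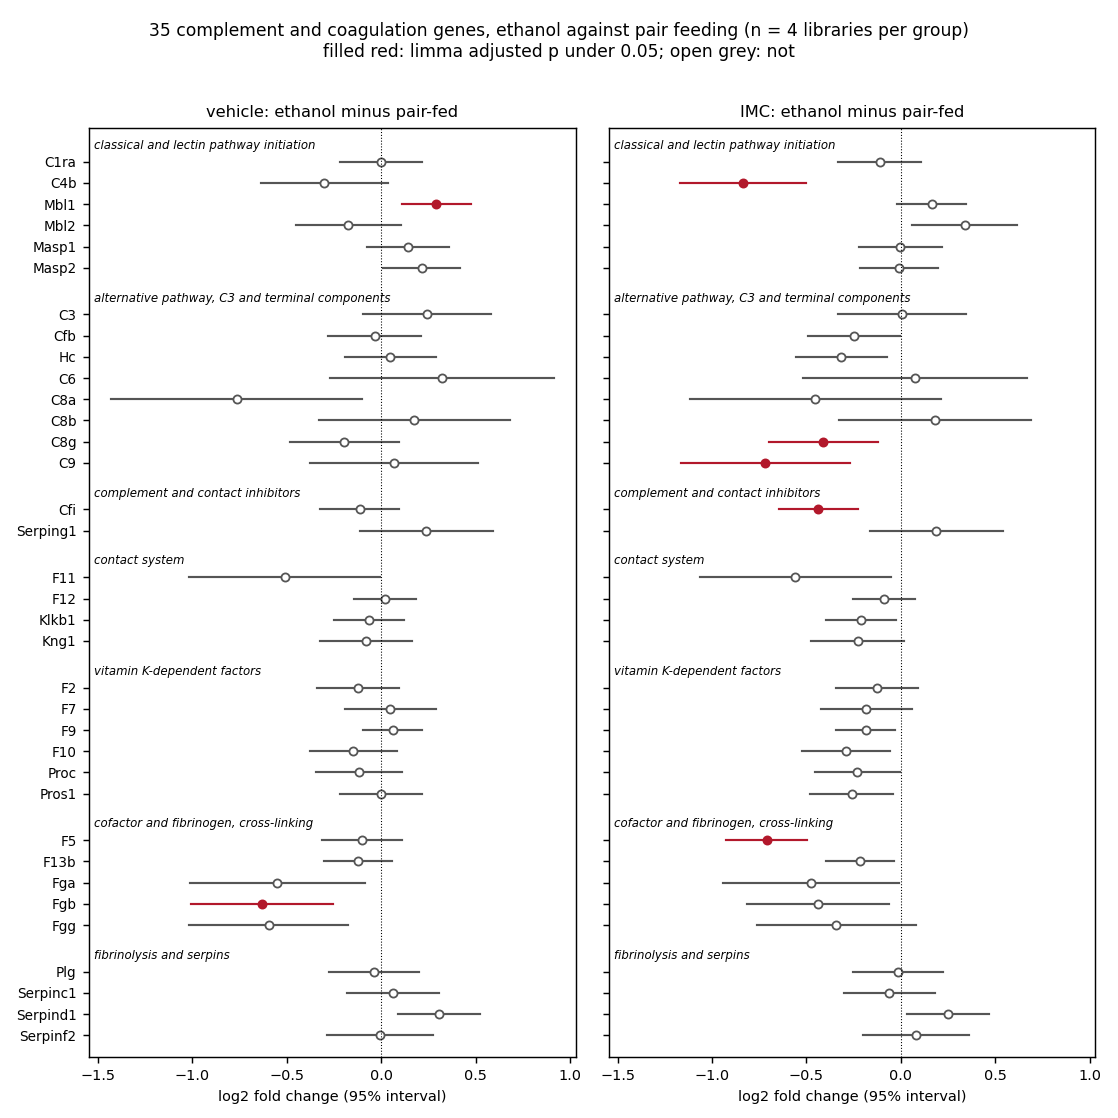
Log2 fold change of ethanol against pair feeding for the 35 members, grouped by role, in mice given vehicle (left) and IMC (right), with 95% intervals from limma. Filled red points passed at an adjusted p-value under 0.05. Fgb (-0.63) and Mbl1 (0.29) passed without IMC, and C4b, F5, C9, Cfi and C8g passed below 0 under IMC.

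All 5 members of the group of factor V, fibrinogen and factor XIII passed below 0 with ethanol averaged over treatments, beside 13.2% of all genes. Fgb was 48072, 93489.7, 53251 and 57605 in Pair vehicle and 43149, 40351, 35419 and 38833 in EtOH vehicle, without overlap. It fell by 0.63 on the log2 scale (SE 0.18, adjusted p = 0.0288), with adjusted p-values of 0.066 without library 12, 0.0539 without 3, 0.0822 without 5 and 0.0648 without 7. Averaged over treatments the falls were 0.54 for Fgb (adjusted p = 0.00485), 0.51 for Fga (adjusted p = 0.0225) and 0.47 for Fgg (adjusted p = 0.0215).

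Without library 12 the averaged falls were smaller and still passed, at 0.43 (adjusted p = 0.0039), 0.37 (0.0218) and 0.34 (0.0203). On the values as deposited those of Fga and Fgg did not pass (0.107 and 0.124). F5 fell by 0.41 averaged over treatments (SE 0.07, adjusted p = 0.00061), with -0.10 (adjusted p = 0.545) without IMC and a fall of 0.71 (SE 0.10, adjusted p = 0.000258) under IMC. F13b fell by 0.17 (adjusted p = 0.0458), a call lost when any library other than 3, 4, 11 or 12 was left out (up to 0.0914, without library 7). Its log2 fold change was 0.02 on the values as deposited.

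**Figure D5:**
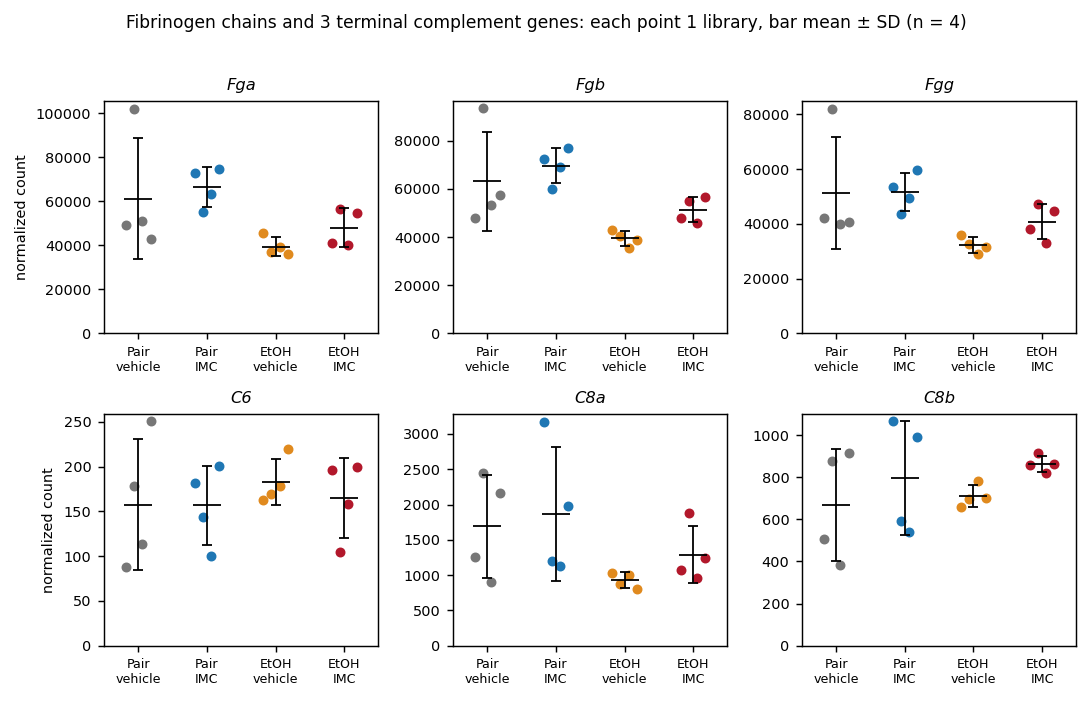
Normalized count of the fibrinogen chains Fga, Fgb and Fgg and of the terminal complement genes C6, C8a and C8b in each library (points), with the mean and SD of each group of 4 as bars. A single Pair vehicle library is highest for all 3 chains (102120.0, 93489.7 and 82078), and the EtOH vehicle libraries are the lowest group for each chain.

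The 3 fibrinogen chains, which assemble into 1 protein, moved together across the 16 libraries. Their summed count ranged from 103875 to 277688, 2.67-fold, whereas the ratio of Fga to Fgb stayed between 0.747 and 1.11 and that of Fgg to Fgb between 0.706 and 0.879. The points share libraries, neighbouring loci and size factors. C6, C8a and C8b were likewise high in the same libraries of the pair-fed groups. In Pair vehicle C8a was 1255, 2446, 908 and 2161 and C8b 507, 877, 381 and 912 in libraries 10, 12, 14 and 16. In Pair IMC C8a was 3170.3, 1205, 1126 and 1972 and C8b 1068, 590.3, 539.7 and 989 in libraries 2, 4, 6 and 8. In both groups the same pair of libraries was highest for both genes.

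Of the complement genes, C4b fell with ethanol under IMC by 0.83 on the log2 scale (SE 0.16, adjusted p = 0.00221), from 16286 to 8971 in group means, without overlap. Averaged over treatments it fell by 0.57 (adjusted p = 0.0015), and by 0.49 (adjusted p = 0.00166) without library 12. Cfi was 9946, 7874, 8727 and 9817 in Pair IMC and 6433, 6614, 6559 and 7157 in EtOH IMC, a fall of 0.44 (SE 0.10, adjusted p = 0.00735) without overlap. Averaged over treatments Cfi fell by 0.28 (adjusted p = 0.00855). On the values as deposited neither Cfi call held (0.0733 and 0.351).

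Library 12 is in neither group of the ethanol comparison under IMC, yet shares the estimate of the spread, and without it 3 more members passed below 0 there. They were Hc, the gene of C5 (log2 fold change -0.32, adjusted p = 0.0341 against 0.0677 with all libraries), Fga (-0.48, 0.0415 against 0.153) and Fgb (-0.44, 0.0299 against 0.0999).

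C9 was 2380.5, 1585, 1953 and 2862 in Pair IMC and 1447, 947, 1315 and 1601 in EtOH IMC, groups that overlapped, and fell by 0.72 (SE 0.21, adjusted p = 0.028). The adjusted p-value was 0.0701 without library 2, 0.0921 without 8, 0.0776 without 11 and 0.0571 without 13, and 0.0702 on the values as deposited. C8g fell by 0.41 under IMC (adjusted p = 0.0477), lost in 13 of 16 fits with 1 library left out, all but those without library 5, 10 or 15, with values up to 0.147 without library 9. Averaged over treatments C8g fell by 0.30 (adjusted p = 0.0281), lost without library 5 (0.0624), 8 (0.0553), 9 (0.0584), 13 (0.0599) or 14 (0.0546).

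Mbl1 and Serpind1 were the 2 members that were higher with ethanol. Mbl1 was 1936, 2214, 1717 and 2131 in Pair vehicle and 2616, 2423, 2414 and 2293 in EtOH vehicle, without overlap, and rose by 0.29 on the log2 scale (SE 0.09, adjusted p = 0.0377). The call was lost without library 1 (0.105), 3 (0.0704), 5 (0.0779), 7 (0.0504), 10 (0.0784) or 14 (0.125), whereas the rise averaged over treatments, 0.23 (adjusted p = 0.0117), held in each such fit. Serpind1, whose protein inhibits thrombin, was 6807, 5699.8, 6978 and 7758 in Pair vehicle and 7814, 8761, 7916 and 9054 in EtOH vehicle. These groups did not overlap (log2 fold change 0.31, adjusted p = 0.0601), and averaged over treatments Serpind1 rose by 0.28 (adjusted p = 0.00951).

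F11 fell with ethanol averaged over treatments by 0.54 (SE 0.17, adjusted p = 0.0276), and the groups without IMC did not overlap (log2 fold change -0.51, adjusted p = 0.175). The averaged call was lost without library 2 (0.054), 3 (0.0503), 8 (0.0552), 9 (0.0525), 13 (0.0547) or 16 (0.0545) and on the values as deposited (0.113). F10 fell by 0.22 (adjusted p = 0.0468), a call lost when any library other than 4, 10, 11 or 15 was left out (up to 0.0995, without library 5). The other 5 vitamin K-dependent genes, F12, Klkb1, Kng1, C3, Cfb, Plg, Serpinc1 and Serpinf2 did not pass in any ethanol comparison with all libraries. Under IMC and without library 4, Pros1 (adjusted p = 0.029), F11 (0.0219), F13b (0.0241) and Hc (0.0257) passed below 0. F10 passed below 0 there without library 15 (0.042), and Mbl2 passed above 0 without library 16 (0.0398). C8a did not pass averaged over treatments with all libraries. It passed without library 4, 6, 10, 11 or 14, with log2 fold changes of -0.66 to -0.74 (adjusted p = 0.0182 to 0.0497). Without library 12 it was -0.50 (adjusted p = 0.103).

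The wider pathway was described by 86 further genes, of which 84 were in the table and 69 were tested. With IMC in ethanol-fed mice 13 were lower and 1 higher, 20.3% of the 69 beside 21.5% of all genes in either direction and 11.1% lower. In pair-fed mice 0 passed with limma or edgeR, 2 with DESeq2, and 9 had an unadjusted p under 0.05. The lectin pathway gene Colec10 fell from 516, 623, 563 and 531 to 373, 256, 235 and 304, by 0.95 on the log2 scale (adjusted p = 8.19e-05). Colec11, which pairs with it, fell by 0.65 (adjusted p = 0.0158, and 0.0513 without library 11). Adamts13, the protease that cuts von Willebrand factor, fell by 0.86 (adjusted p = 0.00386). Colec10 was also the wider gene with a difference of the IMC effect between diets, -0.98 (adjusted p = 0.0133).

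With ethanol without IMC 9 of the 69 genes were higher and 1 lower, and averaged over treatments 9 were higher and 4 lower. In either direction these are 14.5% and 18.8% of the list, beside 11.9% and 26.1% of all genes, and shares in either direction do not show the split. Of all 12522 genes 795 were higher and 696 lower without IMC. Averaged over treatments 1622 were higher and 1651 lower. The C3a receptor gene C3ar1, found on myeloid cells, rose by 1.22 (adjusted p = 0.00411), from 21.0, 25.3, 31.5 and 53.6 to 55.2, 87.1, 70.8 and 83.2. The quinone reductase gene Nqo1, which can reduce vitamin K, rose by 1.30 averaged over treatments (adjusted p = 8.06e-07). Lman1, a cargo receptor for factors V and VIII, rose by 0.25 (adjusted p = 0.00277) in the same comparison, in which F5 fell. Cpn1, the enzyme that inactivates C3a and C5a, fell by 0.41 (adjusted p = 0.000231).

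Of 18 transcription factors that act on secretory genes of hepatocytes, 4 were higher and 3 lower with IMC averaged over diets, 38.9% beside 28.2% of all genes. Hnf4a rose by 0.67 (SE 0.09, adjusted p = 7.21e-05) and Foxa3 by 0.54 (adjusted p = 8.92e-05), and the oestrogen receptor gene Esr1 fell by 0.90 (adjusted p = 5.84e-05). Of 24 acute phase genes outside the members, 2 were higher and 5 lower with IMC in ethanol-fed mice, 29.2% beside 21.5% of all genes. Saa1 fell by 3.74 (adjusted p = 0.00201), from 209, 646, 519 and 296 to 24.8, 33.7, 18.8 and 35.7, while haptoglobin (Hp) rose by 0.60 (adjusted p = 0.026, lost without library 1, 5, 13 or 15, with values up to 0.0711). Their part in the results for the members was not tested.

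Markers of the liver's cell types were read beside these results, since in bulk tissue fewer cells of a type and less RNA per cell cannot be told apart. Of 12 hepatocyte markers, 1 was lower with IMC in each diet and 0 were higher, and their summed level was 1261450 to 1430705 in EtOH vehicle and 1150768 to 1517039 in EtOH IMC. Of 12 stellate cell markers, 5 were lower with IMC in ethanol-fed mice, beside 11.1% of all genes. Among them Reln fell by 1.26 (adjusted p = 8.64e-05) and Ecm1 by 1.18 (adjusted p = 7.25e-05). The summed level of the 12 was 6510.0 to 7716 in EtOH vehicle and 4031 to 5263 in EtOH IMC. Of 12 sinusoidal endothelial markers 1 was higher in that comparison, beside 1301 of the 12522 genes. Of 12 Kupffer cell markers 0 passed with limma, edgeR or DESeq2, and 3 had an unadjusted p under 0.05.

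The markers also moved with ethanol. Without IMC all 12 stellate cell markers and all 12 sinusoidal endothelial markers had log2 fold changes above 0, with 3 and 1 passing. Their medians were 0.37 and 0.21. Over all genes 50.9% lay below 0, the median was -0.01, and 795 of 12522 passed above 0. Of the 12 Kupffer cell markers 11 were above 0, with a median of 0.39, while 0 passed with limma, edgeR or DESeq2 and 2 had an unadjusted p under 0.05. The summed level of the stellate cell markers was 5016 to 6626 in Pair vehicle and 6510.0 to 7716 in EtOH vehicle, ranges that overlapped. Under IMC the hepatocyte marker sum was 1892441 to 2047999 in Pair IMC and 1150768 to 1517039 in EtOH IMC, without overlap. Of these 12 genes 1 passed, below 0, beside 8.61% of all genes. Averaged over treatments 5 of the 12 sinusoidal endothelial markers were higher, and of the 12 hepatocyte markers 2 were higher and 1 lower. Over all 12522 genes, 1622 were higher and 13.2% were lower. The part of these markers in the IMC and ethanol results for the members was not tested.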

How the data were processed

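RNA of 16 livers was sequenced from directional libraries, paired-end per the labels and single-end per the study's methods, which the gene values do not settle. Per those sources reads were trimmed with Trim Galore, checked with FastQC, aligned with STAR to mm10 and normalized with edgeR, while the read counter was not given in the sources used here. The deposited signal is the read count of each gene divided by a size factor of the library, since the authors' values were whole multiples, within 0.01, of what 1 read is worth in 15 libraries and less securely in library 15. Values were rescaled over all 16 libraries by a median ratio over 13121 genes, because the deposited values of ethanol-fed and pair-fed libraries differed by a median of 0.19 (log2).

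The 12522 of 24082 genes that reached 10 in 4 or more libraries entered limma 3.58.1 (R 4.3.3) on log2(value + 1). It fitted 1 mean per group and let the variance follow the mean. Tests were two-sided, and p-values were adjusted by Benjamini-Hochberg over every gene tested. Fold changes are on this scale and understate those of low genes. Alternatives were other pseudocounts (0.1 and 5) and filters, values as deposited, quantile normalization, other sets of libraries, and count models on the recovered reads (edgeR 4.0.16, DESeq2 1.42.0). The procedure was tested on simulated data. Groups came from the sample titles. The replicates of a group differed by more than counting noise (chi-square per gene 5.88 to 47.1 over 24 pairs). The 35 members and all lists were chosen with earlier results of these data known. Members were described in full where they passed a test. From the wider pathway list up to 4 genes per direction and comparison, with a mean of at least 20, could be named, and from other lists up to 2. Gene positions are from GENCODE (24026 IDs found). Python 3.11.15 with pandas 2.3.3 was used for tables.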

Additional observations from a re-analysis of the deposited data

Results flagged for a closer look

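In 5 of 140 groups of 4 libraries, 1 library of a member lay far from the other 3 by Dixon's test, where chance flags about 1 in 20 groups, or 7 of 140. Library 12 of Pair vehicle held 3 of them. Its C4b count was 27070.8 against 16587.9 to 17643.7 in the others, its Fga count 102120 against 43056.9 to 51033, and its Fgg count 82078.4 against 40116.7 to 42234.2. In library 16 of Pair vehicle Mbl2 was 7851.33 against 5179.08 to 5625.39, and in library 5 of EtOH vehicle F10 was 3906 against 4707.37 to 4780.61. The IMC effect differed between diets for F5, by -0.61 (log2, adjusted p = 0.0482), and for Colec10 of the wider pathway, by -0.98 (adjusted p = 0.0133), both in limma's test of the difference.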

How the results depend on the processing

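Of 45 calls of members in limma, 19 held in every fit, 26 in every fit with 1 library left out and 24 in all other alternatives. The number of members passing with IMC in pair-fed mice (1) was 0 with only the libraries of the comparison and 2 with DESeq2, and 1 to 2 with 1 library left out. In ethanol-fed mice (13) it was 7 to 13 with 1 library left out. With quantile normalization it was 7, without C8g, F5, F9, F10, Klkb1 and Proc. For ethanol without IMC (2) it was 1 with no filter and with no mean-variance trend, 5 as deposited and with DESeq2, 0 with only the libraries of the comparison, and 0 to 5 with 1 library left out, with 0 without library 3, 5 or 7 and 5 without library 16. For ethanol under IMC (5) it was 3 with no trend and 3 to 8 with 1 library left out. For the difference between diets (1) it was 0 with no filter, quantile normalization, no trend or edgeR's TMM, and 0 to 1 with 1 library left out, where 1911 of all genes had an unadjusted p under 0.05 in limma. On the values as deposited the members' median log2 fold change was 0.1541 for ethanol without IMC, -0.021 under IMC and 0.06 averaged. Direction turned for F13b, ethanol averaged over treatments, at 0.0204 as deposited, and for the hepatocyte marker Trf, ethanol under IMC, at 0.36 with quantile normalization. The causes of these shifts were not tested. The shares of all genes passing also depend on the filter. With only genes of a mean of at least 100 tested, 2302 of 8311 genes passed with IMC in ethanol-fed mice. With ethanol averaged over treatments 2624 of these passed. No paired analysis was possible because the groups share no replicate numbers.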
